A study of Mus musculus with 2 samples.

Results

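The 37 genes described here are interferon-stimulated genes with known antiviral roles, measured in explanted embryonic mouse ureters cultured with or without NOGGIN. NOGGIN is a secreted antagonist that traps bone morphogenetic proteins (BMPs) outside the cell. The genes were chosen from earlier results on these same arrays, by their ratio of the NOGGIN to the control sample and by how that ratio differed between the replicates, and their probes were found by accession. Their ratios are therefore given as a description, with no test. Of the 37 genes, 35 had a probe that could be named and 34 were kept, among 21337 genes kept on the arrays. Mx1 and Mx2, dynamin-like antiviral GTPases, matched no probe by accession. The probe of Ddx60, an RNA helicase, was not well above background in any channel.

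The tissue was ureter from wildtype NMRI mouse embryos of mixed sex at stage E12.5 (embryonic day). The explants were grown on transwell membranes for 18 h, either with NOGGIN at 10 µg/ml or without it. Each of 2 Agilent 2-colour arrays carried 1 control and 1 NOGGIN sample, with the dyes exchanged. There were thus 2 samples of each group, which are spoken of below as 4 cultures. The labels do not say whether the replicates came from separate litters or culture days, nor how many ureters each sample held, so the spread between them may be technical. RNA came from whole explants, in which more cells of a type and more RNA per cell cannot be told apart.

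Interferons are secreted proteins released by cells that sense viral or other misplaced nucleic acid. Type I interferons bind the receptor chains IFNAR1 and IFNAR2, whose kinases JAK1 and TYK2 activate a complex that contains STAT2 and IRF9. This complex binds the interferon-stimulated response element in the promoters of antiviral genes, whose products block viral translation, degrade viral RNA or sense it. Several of them, among them IRF7, STAT2 and IRF9, feed back on the pathway itself.

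The ratios below are log2 values of the NOGGIN-labelled over the control-labelled channel, with the direction taken from the dyes in the labels. In the authors' deposited table the sign is opposite, for 34 of 34 genes on replicate 1 and for 32 of 34 on replicate 2. Id2, a gene switched on by BMP signalling, had label-oriented ratios of 2.11 and 3.34, whereas the authors' deposited table lists signed folds of -4.19 and -10.5. All 9 BMP-SMAD targets examined were higher in the NOGGIN-labelled channel (adjusted p at or below 0.0355 with limma), which goes against the labels, since NOGGIN blocks BMP signalling. The direction is thus unsettled, and turning it exchanges the words NOGGIN-labelled and control-labelled on both arrays. A difference in signal between the arrays does not depend on it.

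On replicate 1 the antiviral genes were lower in the NOGGIN-labelled than in the control-labelled culture, and on replicate 2 they were near equal. The median log2 ratio of the 34 genes was -0.95 on replicate 1, with 33 of them below 0, and -0.045 on replicate 2, with 20 below 0. Over all 21337 genes the medians were 0.0067 and -0.0044, with 10336 and 10883 of them below 0. On replicate 1, 23 of the 34 genes were at least 1.5-fold lower, beside 2.45% of all genes, and none was as much higher, beside 1.99%. On replicate 2 none of the 34 was at least 1.5-fold lower, beside 2.77% of all genes, and Rtp4 alone was higher, beside 2.33%. None was lower by that much on both arrays, beside 1.55% of all genes. A ratio below 0 on replicate 1 and above 0 on replicate 2 was found for 13 of the 34, beside 15.3% of all genes. The SD between the up to 4 spots of a probe had a median of 0.059 on replicate 1 and 0.066 on replicate 2, which is technical spread within an array and does not measure the spread between cultures.

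**Figure D1:**
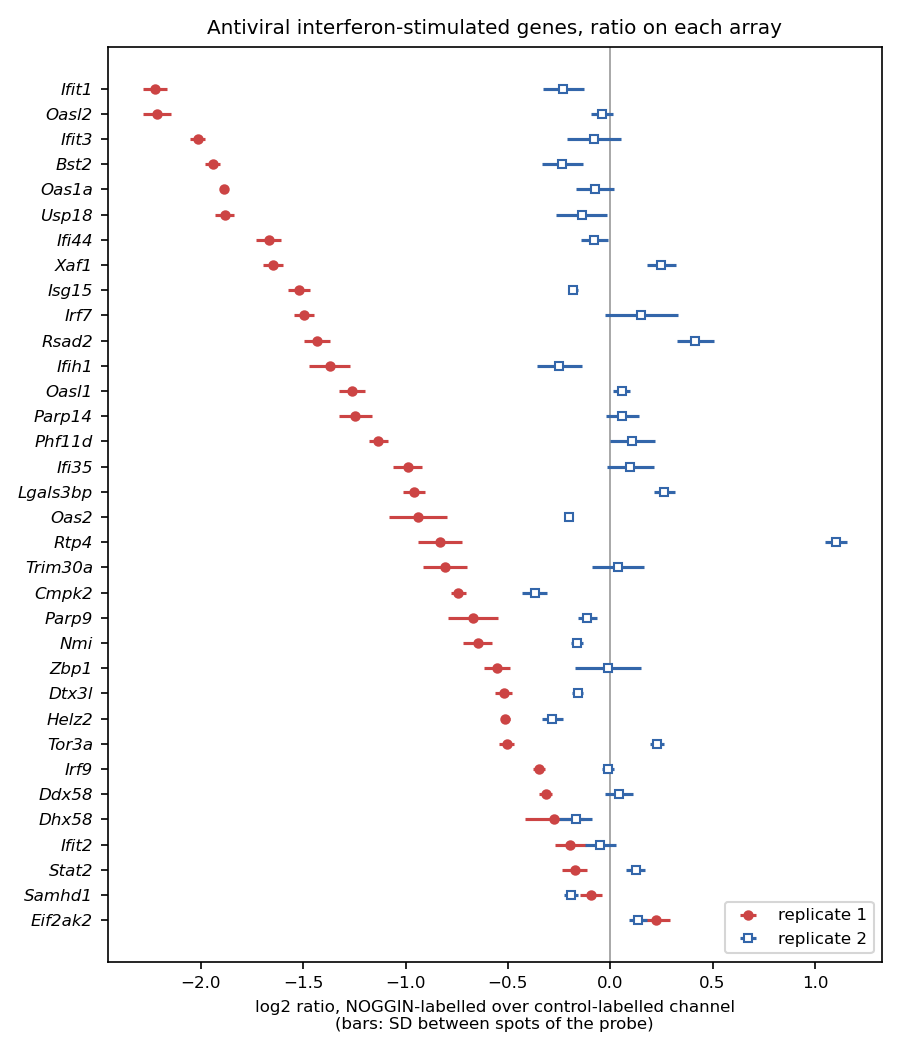
Log2 ratio of the NOGGIN-labelled over the control-labelled channel (horizontal axis) for each of the 34 genes (vertical axis) on replicate 1 (filled circles) and replicate 2 (open squares), with bars for the SD between spots of the probe. Replicate 1 runs from -2.23 to 0.22 and replicate 2 from -0.37 to 1.10.

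A fit over both arrays called 1 of these genes. With limma over all genes and Benjamini-Hochberg adjustment at 0.05, Cmpk2 was the 1 called of 34, beside 7.97% of all genes in either direction. It was called lower, beside 4.03% of all genes. None was called higher, beside 3.95% of all genes. At an unadjusted p under 0.05, 12 of the 34 were called in either direction, beside 23.2% of all genes. The choice of the genes used this contrast, so nothing is read from these counts.

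The ratios are set here beside the level in each of the 4 cultures. Because the choice of the genes used the ratios, the order of the cultures within replicate 1 was partly fixed in advance. The control-labelled culture of replicate 1 was the highest of the 4 for 32 of the 34 genes, beside 23.4% of all genes, the exceptions being Eif2ak2 and Samhd1. For 26 of the 34, both cultures of replicate 1 were above both cultures of replicate 2, beside 14.5% of all genes. On the log2 scale, the control-labelled culture of replicate 1 exceeded that of replicate 2 by a median of 1.31. The NOGGIN-labelled culture of replicate 1 exceeded that of replicate 2 by a median of 0.24. The most common order was therefore a high control-labelled and an intermediate NOGGIN-labelled culture on replicate 1, and 2 low cultures on replicate 2. At least 2-fold differences between replicates were seen for 20 of the 34 genes in the control-labelled cultures, beside 0.38% of all genes. In the NOGGIN-labelled cultures they were seen for 4, which were Ifit1, Ifit3, Isg15 and Oasl2, beside 0.0797% of all genes.

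**Figure D2:**
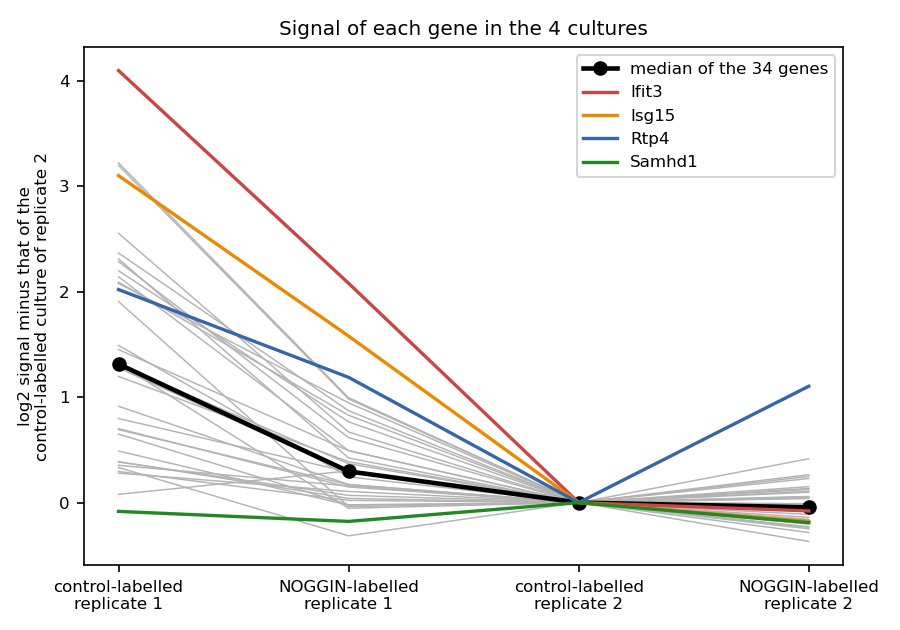
Log2 signal of each of the 34 genes in the 4 cultures (horizontal axis), relative to the control-labelled culture of replicate 2 (vertical axis, log2 units), with 1 line per gene, the median in black and single genes in colour. The median line is highest in the control-labelled culture of replicate 1, where it lies 1.31 above the reference.

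These levels rest on a normalisation between arrays, and each condition changed dye between the arrays. Comparing channels of the same dye sets the control-labelled culture of replicate 1 against the NOGGIN-labelled culture of replicate 2 in red, and the NOGGIN-labelled culture of replicate 1 against the control-labelled culture of replicate 2 in green. The median difference was 1.23 in red and 0.30 in green on the log2 scale. Higher on replicate 1 were 33 of the 34 genes in red and 28 in green, beside 10751 and 10811 of all 21337 genes. At least 2-fold higher were 20 of the 34 in red, beside 1.05% of all genes, and 3 in green, beside 0.778%. Both dyes thus gave higher levels on replicate 1 for most of the 34 genes, with the larger difference in red. The red comparison holds the control-labelled culture of replicate 1, whose high place was partly fixed by the choice of the genes. Every channel entered the ratios used for that choice, so the dyes are no independent check.

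Promoter stretches of 10 genes with large ratios on replicate 1 are shown next, 6 with and 4 without the core of the interferon-stimulated response element, since the response element is where the complex with STAT2 and IRF9 binds. Each stretch is the 160 bases just before the gene's start, from RefSeq's promoter windows of the mouse assembly GRCm38.p6, 5′ to 3′ on the strand of the gene, and capitals mark the core of the response element. The core was searched as GAAANNGAAA on both strands, so that it can also appear as its reverse complement, and overlapping matches run together. The stretches lie at chr19:34640729-34640888, plus strand (Ifit1), chr19:34583369-34583528, plus strand (Ifit3), chr4:156200819-156200978, minus strand (Isg15), chr8:71537473-71537632, minus strand (Bst2), chr5:120907526-120907685, minus strand (Oas1a) and chr12:26456453-26456612, minus strand (Rsad2). The windows of Oasl2 (chr5:114896774-114896933, plus strand), Xaf1 (chr11:72301469-72301628, plus strand), Ifi44 (chr3:151749911-151750070, minus strand) and Irf7 (chr7:141266425-141266584, minus strand) held no match and are shown for comparison.
Ifit1: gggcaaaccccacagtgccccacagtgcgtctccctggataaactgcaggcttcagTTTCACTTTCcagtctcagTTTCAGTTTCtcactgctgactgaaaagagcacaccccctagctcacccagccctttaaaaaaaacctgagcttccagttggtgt
Ifit3: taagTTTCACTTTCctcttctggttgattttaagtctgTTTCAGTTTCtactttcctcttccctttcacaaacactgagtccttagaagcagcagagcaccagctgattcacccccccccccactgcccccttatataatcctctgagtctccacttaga
Isg15: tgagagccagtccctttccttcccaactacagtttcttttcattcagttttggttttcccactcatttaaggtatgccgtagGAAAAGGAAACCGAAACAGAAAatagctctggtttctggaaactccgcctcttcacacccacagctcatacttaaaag
Bst2: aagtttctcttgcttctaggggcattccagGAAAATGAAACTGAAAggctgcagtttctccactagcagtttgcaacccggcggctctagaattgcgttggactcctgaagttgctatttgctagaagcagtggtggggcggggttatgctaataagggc
Oas1a: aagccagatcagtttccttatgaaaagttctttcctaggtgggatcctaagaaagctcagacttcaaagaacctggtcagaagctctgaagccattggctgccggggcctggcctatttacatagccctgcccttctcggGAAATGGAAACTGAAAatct
Rsad2: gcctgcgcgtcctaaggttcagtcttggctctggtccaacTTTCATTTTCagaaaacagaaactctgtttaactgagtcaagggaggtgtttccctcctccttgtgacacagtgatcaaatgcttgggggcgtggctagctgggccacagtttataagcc
Oasl2: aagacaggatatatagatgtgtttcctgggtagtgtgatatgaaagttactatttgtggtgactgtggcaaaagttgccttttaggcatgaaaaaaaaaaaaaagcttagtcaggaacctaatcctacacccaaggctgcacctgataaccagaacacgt
Xaf1: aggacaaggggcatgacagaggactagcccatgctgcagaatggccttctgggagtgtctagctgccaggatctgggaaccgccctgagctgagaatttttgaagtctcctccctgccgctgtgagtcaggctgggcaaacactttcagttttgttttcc
Ifi44: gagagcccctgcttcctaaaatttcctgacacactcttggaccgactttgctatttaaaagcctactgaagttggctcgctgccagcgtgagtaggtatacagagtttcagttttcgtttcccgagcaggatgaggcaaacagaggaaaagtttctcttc
Irf7: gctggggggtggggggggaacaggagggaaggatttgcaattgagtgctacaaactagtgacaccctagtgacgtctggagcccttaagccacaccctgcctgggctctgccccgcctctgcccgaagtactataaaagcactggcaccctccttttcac

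Windows of 250 bases before to 50 bases after the start were at hand for 27 of the 37 genes. The core was found in 12 of the 27 windows (44.4%), beside 3.99% of 27025 genes in the table. The holders were Bst2, Ddx58, Ddx60, Eif2ak2, Ifih1, Ifit1, Ifit3, Isg15, Oas1a, Rsad2, Stat2 and Trim30a. The gamma-activated site, searched as TTCNNNGAA on both strands, was found in 6 of 27 (22.2%), beside 9.55% of all genes, and in 1 gene, Bst2, a match of it overlapped the core. Genes with the core spanned the whole range of ratios of the 34 on replicate 1, from -2.23 for Ifit1 to 0.22 for Eif2ak2, with a median of -1.43 over the 11 that were kept. The 15 kept genes whose window lacked it had a median of -0.96 and ran from -2.21 to -0.10, so the groups overlapped. A match is a description of the letters in this window only.

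Of the transcription factors, IRF7, the factor that amplifies type I interferon production, differed most. Irf7 had log2 signals of 9.35 in the control-labelled and 7.85 in the NOGGIN-labelled culture of replicate 1, and of 6.98 and 7.13 in those of replicate 2. Its ratio was -1.50 on replicate 1 and 0.15 on replicate 2. The DNA-binding subunit gene Irf9 had ratios of -0.35 and -0.01. Stat2 had ratios of -0.17 and 0.12, the smallest of the 3 on replicate 1.

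Among the sensors, Ifih1 stood apart. Ifih1 encodes MDA5, a helicase that recognises long double-stranded RNA, and had log2 signals of 10.41 and 9.04 in the control-labelled and NOGGIN-labelled cultures of replicate 1 and of 9.09 and 8.84 in those of replicate 2. Only the control-labelled culture of replicate 1 was high. Its ratio was -1.37 on replicate 1 and -0.25 on replicate 2. Ddx58, encoding the related sensor RIG-I, had ratios of -0.32 and 0.04, and its second kept probe gave a gap of 0.08 between replicates against 0.36. Dhx58, encoding LGP2, which modulates both sensors, had ratios of -0.27 and -0.17. Zbp1, a sensor of Z-form nucleic acid, had ratios of -0.55 and -0.01, with a share of 0.333 of its spots well above background in the NOGGIN-labelled culture of replicate 2. Eif2ak2 encodes PKR, a kinase that halts translation on binding double-stranded RNA. It was the only one of the 34 genes above 0 on replicate 1, with ratios of 0.22 and 0.13 and log2 signals from 11.22 to 11.52.

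The IFIT proteins bind viral RNA that lacks the cap modification of the host. Ifit1 had log2 signals of 10.29 and 8.07 in the control-labelled and NOGGIN-labelled cultures of replicate 1 and of 7.07 and 6.84 in those of replicate 2, the last of them with a share of 0.333 of its spots well above background. Its ratio was -2.23 on replicate 1, a 4.68-fold difference, and -0.23 on replicate 2. Ifit3, whose product stabilises IFIT1, had log2 signals of 11.96 and 9.95 on replicate 1 and of 7.87 and 7.79 on replicate 2. Every culture of replicate 1 was above every culture of replicate 2, by 17.1-fold between the control-labelled and 4.46-fold between the NOGGIN-labelled cultures, the widest such steps among the 34 genes. Ifit2 did not follow: its log2 signals were 10.09, 9.90, 9.74 and 9.69 in the same order, and its ratios were -0.20 and -0.05. Ifit3b, a near-identical copy of Ifit3, can share its hybridisation, so values of the pair are uncertain.

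The OAS family holds enzymes that make oligoadenylates on binding double-stranded RNA, and relatives of them. Oasl2 had log2 signals of 12.03 and 9.82 on replicate 1 and of 8.83 and 8.79 on replicate 2, again control-labelled first. Its ratio was -2.21 on replicate 1 and -0.04 on replicate 2, the largest distance between the arrays among the 34 genes, at 2.17. Oas1a had log2 signals of 11.86, 9.98, 9.55 and 9.48, with ratios of -1.89 and -0.08. A second Oas1a probe gave -1.27 and -0.10, a smaller distance in the same direction. Oasl1, which restrains translation of Irf7 mRNA, had ratios of -1.26 and 0.06. Oas2 had ratios of -0.94 and -0.20. All 4 were highest in the control-labelled culture of replicate 1, and in all 4 the NOGGIN-labelled culture of that replicate was next.

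Isg15 encodes a ubiquitin-like protein attached to other proteins during the interferon response. Its log2 signals were 11.33 and 9.81 on replicate 1 and 8.23 and 8.05 on replicate 2. The ratio was -1.52 on replicate 1 and -0.18 on replicate 2, and a second probe gave -1.80 and -0.20. Usp18 encodes the protease that removes ISG15 and also damps signalling from the interferon receptor. Its log2 signals were 10.51, 8.63, 7.96 and 7.82 in the same order, and its ratios were -1.88 and -0.14. The modifier and its protease thus had the same order of cultures.

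Of the ubiquitin and ADP-ribose enzymes, Parp14 had the largest ratio on replicate 1, at -1.25, against 0.06 on replicate 2. Parp9 had -0.67 and -0.11. Dtx3l, encoding the ubiquitin ligase that partners PARP9, had -0.52 and -0.16.

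Bst2 encodes tetherin, which holds budding virus at the cell surface. Its log2 signals were 11.59 and 9.65 on replicate 1 and 9.69 and 9.45 on replicate 2, so that only the control-labelled culture of replicate 1 was high. Its ratios were -1.94 and -0.23. Rsad2 encodes viperin, which makes a chain-terminating nucleotide, and had log2 signals of 11.58, 10.14, 9.38 and 9.80 with ratios of -1.43 and 0.42. Cmpk2, its genomic neighbour, encodes a mitochondrial nucleotide kinase. Its ratios were -0.74 and -0.37, and its second probe gave -0.75 and -0.26. Its mean was -0.55 ± 0.26 (SD, n = 2), smaller in size than that of several genes whose arrays lay further apart.

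Rtp4, an interferon-induced regulator of antiviral responses, was the one gene with ratios of at least 1.5-fold in opposite directions, as were 8 of all genes (0.0375%). Its log2 signals were 12.58 and 11.75 on replicate 1 and 10.56 and 11.66 on replicate 2, so that its lowest culture was the control-labelled one of replicate 2. Its ratios were -0.83 and 1.10. Ifi44 had ratios of -1.67 and -0.08, and its NOGGIN-labelled culture of replicate 2 had no spot well above background. Trim30a had ratios of -0.81 and 0.04. Samhd1, encoding an enzyme that depletes deoxynucleotides, was flat, with log2 signals of 13.49, 13.40, 13.58 and 13.39.

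Of the remaining genes, Xaf1, a regulator of cell death, had log2 signals of 10.66, 9.02, 8.52 and 8.77 and ratios of -1.65 and 0.25. Phf11d had ratios of -1.13 and 0.11. Ifi35 had ratios of -0.99 and 0.10. Lgals3bp, encoding a secreted galectin-binding glycoprotein, had ratios of -0.96 and 0.26, and a second probe gave -1.19 and 0.25. Nmi, whose product binds IFI35, had ratios of -0.65 and -0.16. Helz2 had ratios of -0.51 and -0.28, and Tor3a had -0.51 and 0.23. All 7 were lower on replicate 1, and 5 of them were above 0 on replicate 2.

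The distance between the arrays was also described by signal, without the ratio itself. The choice of the genes reaches this measure too. A high control-labelled culture of replicate 1 enters both the distance in ratio and the mean signal. The counts for the 34 genes below are therefore partly fixed in advance. The mean of the red and green log2 signals of an array holds both conditions and both dyes. It was higher on replicate 1 than on replicate 2 for 33 of the 34 genes, by a median of 0.81, against a median of 0.0070 over all genes. The mean signal was at least 2-fold higher on replicate 1 for 14 of the 34, beside 0.183% of all genes. The ratio was at least 2-fold higher on replicate 2 than on replicate 1 for 18 of the 34, beside 0.328% of all genes. None of the 34 went 2-fold the other way, beside 0.0422% of all genes for the signal and 0.0234% for the ratio. The 14 genes met both conditions, beside 0.159% of all genes. Across the 34 genes the distances in ratio and in signal had Pearson's r of 0.828 and Spearman's rho of 0.897. Both distances were computed from the same channel signals, and the genes were chosen in part by the distance in ratio. The correlations are therefore partly built in and are no separate evidence that ratio and signal moved together. They are a description across genes that share the same 2 arrays.

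With 1 array per replicate, these distances had no replicate check. A dye effect of a probe enters the distance in ratio and cannot be told apart there from a difference between cultures. Of the 8 genes with 2 kept probes, Isg15 gave distances of 1.34 and 1.61, Oas1a 1.17 and 1.81, and Lgals3bp 1.22 and 1.44. Samhd1 gave -0.10 and 0.28, so its probes disagreed in sign.

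**Figure D3:**
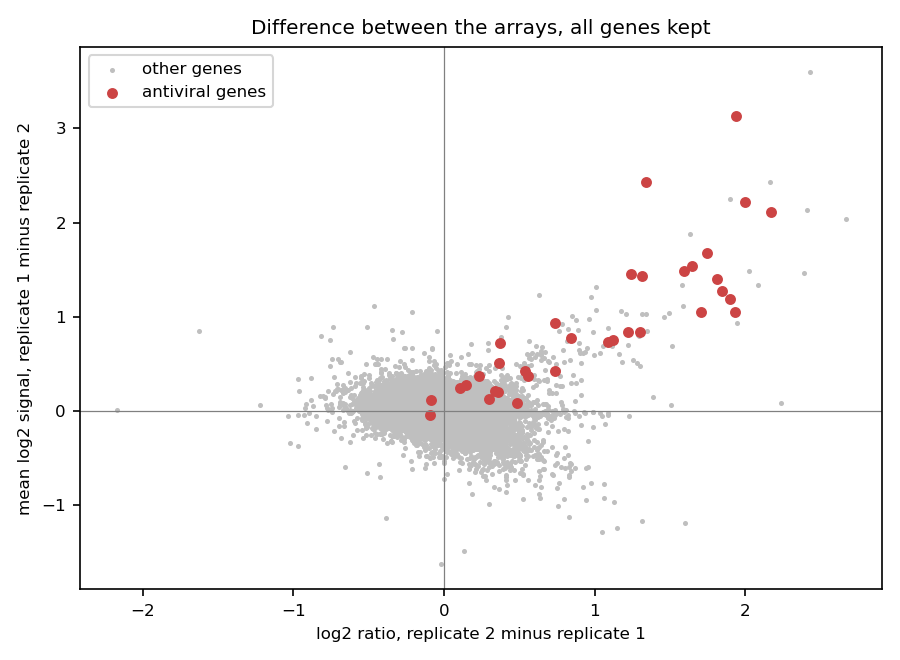
Difference between the arrays for all genes kept (grey) and the 34 antiviral genes (red): the log2 ratio of replicate 2 minus that of replicate 1 (horizontal axis) against the mean log2 signal of replicate 1 minus that of replicate 2 (vertical axis). Most of the antiviral genes lie to the upper right of the other genes, with medians of 1.11 and 0.81.

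The rest of the interferon pathway was read from lists of genes other than the 34. Beside the counts in these lists, 7.97% of all genes were called with limma, 4.03% lower and 3.95% higher. Of 17 interferon ligands, 6 had a kept probe and none passed the threshold (limma, adjusted p of 0.05), and the probes of Ifnb1 and Ifng had no spot well above background in any culture. The 4 kept ligands with the largest mean log2 ratio were Ifna2 (-0.12), Ifna1 (-0.09), Ifna13 (0.07) and Ifnl3 (-0.07). Of 16 receptor and JAK-STAT genes, 15 were kept and none passed, and the median ratios were 0.05 and 0.001. In that list Socs1, a feedback inhibitor of JAK kinases, had -0.27 ± 0.10 (SD, n = 2) and Ifngr1 had 0.26 ± 0.0060, followed by Pias1 at 0.21 and Socs3 at -0.19. Of 19 nucleic acid sensing genes 18 were kept and none passed, with Sting1 at -0.29, Mavs at -0.21 and Adar at -0.15. On replicate 1 the medians of these ligand, receptor and sensing lists lay between -0.064 and 0.05, against -0.95 for the antiviral genes.

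Of 8 other interferon regulatory factors 7 were kept and Irf5 alone was called, higher at 0.97 ± 0.27 (SD, n = 2; limma adjusted p = 0.012), with ratios of 0.78 and 1.17. Of 45 further interferon-stimulated genes 35 were kept and 2 passed, both lower, beside 4.03% of all genes called lower. Ifitm1, encoding a membrane protein that blocks viral entry, had -1.21 ± 0.13 (SD, n = 2; limma adjusted p = 0.0044). Ly6e had -0.44 ± 0.049 (SD, n = 2; limma adjusted p = 0.031). Both had similar ratios on the 2 arrays, -1.31 and -1.12 for Ifitm1 and -0.41 and -0.48 for Ly6e. The median of the 35 was -0.24 on replicate 1 and 0.002 on replicate 2. A distance in ratio of over 1 was found for 5 of them, beside 0.328% of all genes.

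The 13 kept of 17 genes known as targets of interferon-gamma had medians of -1.05 on replicate 1 and 0.33 on replicate 2. In this list 9 genes had a distance in ratio of over 1, beside 0.328% of all genes. A distance in array signal of over 1 was found for 7, beside 0.183%. Cxcl10, a chemokine, was called lower at -2.17 ± 1.15 (SD, n = 2; limma adjusted p = 0.032), with ratios of -2.99 and -1.36. Iigp1, encoding an immunity-related GTPase, was called higher at 1.68 ± 0.30 (SD, n = 2; limma adjusted p = 0.0047), with ratios of 1.47 and 1.90, opposite to the antiviral genes on replicate 1. With median centring in place of loess no gene passed the threshold, so these calls and those of Irf5, Ifitm1, Ly6e and Cmpk2 were lost. Cxcl9 was well above background in the control-labelled culture of replicate 1 alone and was not kept. Of 16 genes of antigen processing 15 were kept and none passed, with medians of -0.52 and -0.01. The largest there were Nlrc5 at -0.74, Psmb8 at -0.58, Psmb9 at -0.46 and H2-K1 at -0.43.

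**Figure D4:**
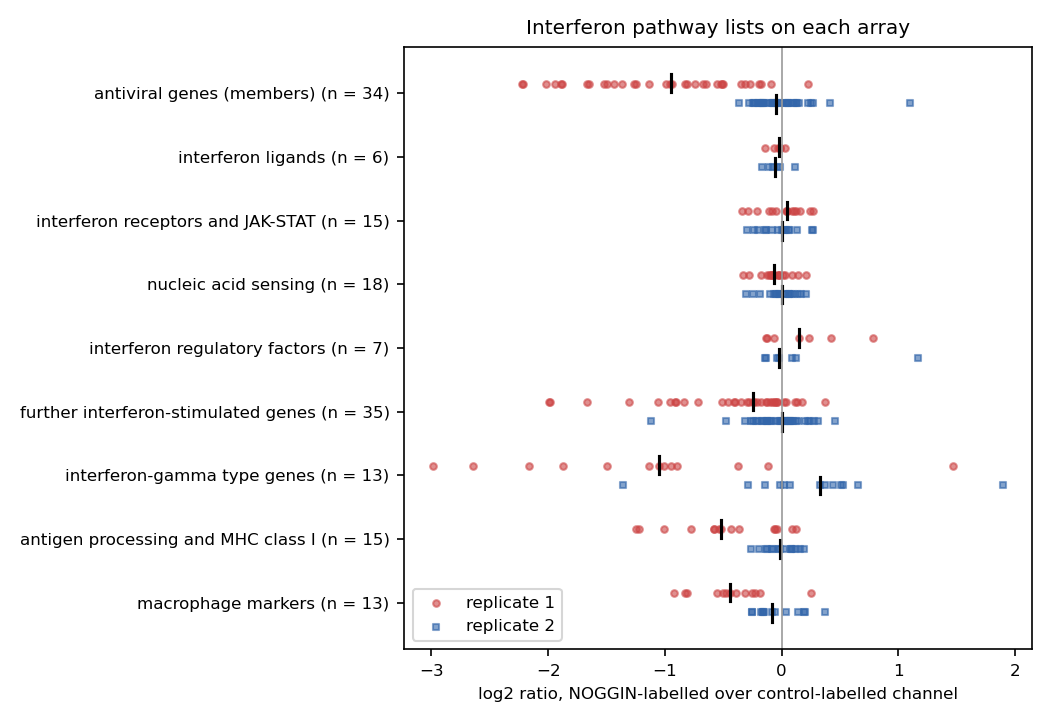
Log2 ratio of the NOGGIN-labelled over the control-labelled channel (horizontal axis) for the genes of each interferon list (rows), on replicate 1 (circles) and replicate 2 (squares), 1 point per gene. The interferon-gamma type genes have medians of -1.05 and 0.33, and the receptor and JAK-STAT genes of 0.05 and 0.001.

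Outside the 34 genes, the 10 named genes with the largest distance in ratio were Ccl5, Saa3, Marco, Gbp3, Tgtp2, Ifi27l2a, Ifi47, Igtp, Ifit3b and Gbp2. Saa3, an acute-phase protein gene, had log2 signals of 11.70 and 9.28 on replicate 1 and of 6.88 and 6.90 on replicate 2. Both of its replicate 1 cultures were above those of replicate 2, as for Ifit3. Marco, encoding a scavenger receptor of macrophages, had log2 signals of 10.75, 8.63, 7.41 and 7.70. Among the 50 genes with the largest distance, 16 were among the 34, which are 34 of 21337 genes kept. Of the 50, 28 were among the 34 or in the lists of further interferon-stimulated and interferon-gamma type genes. The 34 were chosen in part by this same distance, and the lists with earlier results known. These counts were therefore partly fixed in advance, and nothing is read from them.

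Of the lists of cell type markers, the macrophage markers moved with the antiviral genes in part. Of 14 macrophage markers 13 were kept, 12 were below 0 on replicate 1 and 8 on replicate 2, and none passed the threshold. Their medians were -0.44 and -0.078, and their ratios on replicate 1 ran from -0.92 to 0.25. Their summed linear signal was 48332 in the control-labelled and 35877 in the NOGGIN-labelled culture of replicate 1. It was 34516 and 34136 in those of replicate 2. The order of these sums was that of the antiviral genes, with smaller steps, but bright markers weigh most in a sum. For Cd14, Cd68, Csf1r, Cx3cr1, Ptprc and Tyrobp, the cultures of replicate 1 were not both above those of replicate 2. None of the 13 kept markers was at 0, and Fcgr1 was not kept. Adgre1 was the only one with a distance in ratio of over 1. The part of macrophages in the result was not tested. The 6 kept of 11 lymphocyte and dendritic markers had medians of -0.052 and 0.057, and none passed the threshold. The 7 kept of 8 erythroid markers had medians of 0.026 and -0.036. Of these 7, 1 was called higher with limma, a call lost with median centring in place of loess. The 8 epithelial markers had medians of 0.14 and 0.065 and the 8 endothelial markers of 0.064 and 0.23. The 8 mesenchyme markers had medians of -0.38 and -0.41, with 4 called lower (Bmp4, Col1a2, Col3a1 and Ptch1) and 1 higher (Tbx18) with limma. Their summed signal was 1009850 in the control-labelled and 609036 in the NOGGIN-labelled culture of replicate 1, and 1087790 and 748050 in those of replicate 2, so it was lower in the NOGGIN-labelled culture on both arrays. The part of this shift in the antiviral ratios was not tested. With median centring in place of loess none of these 5 calls remained. All 8 markers of ureteric epithelium and all 8 of mesenchyme were kept, and so were present in the labelled tissue.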

How the data were processed

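Each sample was 1 Agilent 2-colour array carrying a control and a NOGGIN culture. Per the labels, Alexa Fluor 647 was read in red and 555 in green, and NOGGIN was green on replicate 1 and red on replicate 2. Spot intensities (linear) come from the deposited scanner output, and the submitters' processing notes name Agilent Feature Extraction 10.7.3.1. The software's log10 ratio, present per the file headers, was not used. The authors' deposited table holds a score per probe, a signed fold change of unstated normalisation.

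Background was corrected with normexp (offset 50) and each array normalised with loess, in limma 3.58.1 (R 4.3.3), with control and outlier spots (3.69%) at weight 0. No spot was saturated. Between 67.3% and 74.3% of gene spots were well above background. Spots of a probe were averaged. Probes were named by accession through a RefSeq table of GRCm38.p6, whereas the probes' own build was not given in the sources used here. The filter kept probes with over 0.5 of their spots flagged well above background, on both arrays, in at least 1 condition, and the brightest probe stood for a gene. Levels of single channels were made comparable between arrays with Aquantile and remain open to dye bias. The test of each ratio against 0 used lmFit and eBayes (two-sided, Benjamini-Hochberg). With 2 arrays there was 1 residual degree of freedom, and moderation added 4.12. The array is the block, since each carries both conditions. The procedure was tested on simulated data. The number of arrays limits the precision.

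The genes and lists were chosen with earlier results of these data known. All of the antiviral genes are named. From each pathway list the text names genes past the threshold, and otherwise up to 4 with the largest mean ratio, and among all genes other than the antiviral ones the 10 symbols with the largest distance between replicates. Other genes named (Id2, Ifnb1, Ifng, Cxcl9 and the macrophage and mesenchyme markers) were chosen after their values were seen. Promoter windows are RefSeq's. Alternatives covered background, normalisation, filter, probes of a gene, the deposited table and the test. Some genes of the lists are not reported here by name.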

Additional observations from a re-analysis of the deposited data

How the results depend on the processing

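The median ratios of the 34 antiviral genes kept their sign under all 8 alternatives of background, normalisation, filter, probe choice and deposited values. They ranged from -1.10 to -0.94 on replicate 1, from -0.11 to -0.027 on replicate 2 and from -0.57 to -0.45 for the mean of arrays. The distance in ratio ranged from 1.05 to 1.19. The mean signal of replicate 2 minus that of replicate 1 ranged from -0.87 to -0.77 over 6 alternatives. The mean was carried by replicate 1: it was -0.045 without replicate 1 and -0.95 without replicate 2, as values with no test, since no residual degrees of freedom are left. With median centring in place of loess, the genes past the threshold fell from 842 higher and 859 lower to 0 and 0 with limma, with 3572 at an unadjusted p under 0.05, and the antiviral genes called lower fell from 1 to 0. That count was also 0 with the mean of all kept probes of a gene, 2 with no background subtraction and 3 with Agilent's processed signals. No antiviral gene was called higher under any of the 10 alternatives. With Agilent's processed signals, 2 antiviral genes were at least 1.5-fold lower on replicate 2, against 0 in the main setting. The separate-channel model with no replicate block called 575 genes higher and 619 lower, and 0 of the antiviral genes. With the gamma-activated site in place of the response element core, 6 promoters held a match. The cause of these changes was not tested.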
